A study of Mus musculus with 22 samples.

Results

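The cells described here are ileal neutrophils with the highest combined level of Txnip, Cxcr4, Mmp9, Gngt2 and Spp1. They were chosen by those 5 genes among 637 base cells from 22 libraries. A base cell had at least 500 transcripts, at least 5 transcripts of S100a8 and S100a9, at most 2 of C1qa, C1qb and C1qc, and at most 1 of Ngp, Ltf and Camp. Members were the 15% of base cells, pooled over libraries, in which the 5 genes made up the largest share of transcripts from named genes, meaning genes whose names do not start with Gm. This gave 96 members and left 541 other base cells, out of 1383 cells with at least 500 transcripts and 4224 barcodes.

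The libraries were made by CEL-Seq2, a plate method that counts transcript 3′ ends by unique identifiers. Cells came from the ileum of BALB/c mice (7 to 9 weeks old), taken 21 days after 2 irradiation doses of 5 Gy and a transplant of 5000000 bone marrow cells from C57BL/6N donors (7 to 10 weeks old). A group with acute graft-versus-host disease (aGVHD), of 12 libraries, also received 400000 donor T cells, and the control group, with 10 libraries, received none. The sort gate was CD45+H2kb+CD11b+Ly6G+, where H2kb marks cells of donor origin, so recipient neutrophils were outside the gate. The labels do not say which mouse a library came from, and p-values therefore measure how far libraries differ, a spread that may be technical in part. Library titles fell into a set with a date-like number and a set with the tag G1.

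Neutrophils leave the marrow when CXCR2 signalling outweighs retention by CXCR4, the receptor for CXCL12, and CXCR4 comes back up as the cells age. TXNIP, the thioredoxin-interacting protein, is an arrestin-fold protein that restrains glucose uptake and is induced by high glucose through MondoA. MMP9, gelatinase B, is stored in gelatinase granules and cleaves denatured collagen and other matrix proteins. Gngt2 encodes a G protein gamma subunit, and Spp1 encodes osteopontin, a secreted matrix protein.

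The members carried the neutrophil markers of the other base cells. Besides S100a8 and S100a9, which the choice of base cells used, 16 neutrophil marker genes were found in the tables. All 16 were detected in members and made up 3.29% of named transcripts, against 2.98% in the other base cells and 3.47% in those that were not deep, meaning at most 4 times the median total of their library's base cells. Csf3r, the G-CSF receptor, was found in 87 of 96 members, Hdc in 92 and Il1b in 95. Ly6g, the gene of the sorting antigen, was seen in 5 of 96 members and 31 of 541 others, so its transcript was sparse in both. Cxcr2 was found in 65 members and 389 others. The label of tissue neutrophils therefore held for lineage markers, while the tissue part of it came from the dissection alone.

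The member with the lowest score had 0.658% of its named transcripts from the 5 genes, and the highest score outside was also 0.658%. The median score was 0.895% in members and 0.258% in the other base cells, of which 48 scored 0. The limit did not fall in a gap, since 73 base cells lay within 0.1 percentage points of it. The members are a range of this score, and whether they form a separate type was not tested. When every cell was first thinned to 200 named transcripts, 47 of the 96 members were chosen again, and 66 were chosen again when the 15% was taken within each library.

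The 3 leading genes contributed about equally to the score. Txnip and Cxcr4 were each detected in 87 of 96 members and Mmp9 in 88. In the other base cells they were detected in 61.7%, 60.8% and 62.7%. Pooled over cells, the level was 2494 CPM for Txnip, 2954 for Cxcr4 and 3010 for Mmp9 in members, against 729, 767 and 781 CPM in the other base cells, where CPM scales transcripts to the same total of named transcripts. Gngt2 was detected in 47 members, at 579 CPM against 160.9 CPM. The sum of these genes chose the cells, so the differences are given as a description, with no test.

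Members were mixed in which of the 5 genes led. Cxcr4 alone was highest in 34 members, Mmp9 in 26, Txnip in 21, Gngt2 in 2 and Spp1 in 1, and 12 had a tie. Txnip, Cxcr4 and Mmp9 were found together in 72 of 96 members. Across all 637 base cells the Spearman correlation of their levels was 0.22 for Txnip with Cxcr4, 0.22 for Txnip with Mmp9 and 0.12 for Cxcr4 with Mmp9. These cells share libraries and the same denominator, and correlations this weak in sparse counts are no finding.

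Spp1 added little to the choice. It was detected in 11 of 96 members, with 26 transcripts in all, and in 12 of 541 others, with 14. A single member held 6 of the 26 in each of control replicate 2 and aGVHD replicate 7. A further 6 came from 3 members of aGVHD replicate 8, and 5 from 3 members of aGVHD replicate 11. Of the 96 cells chosen without Spp1, 93 were members.

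By library, the 5 genes rose to different heights. In the 6 libraries with at least 5 members, member Txnip ran from 1200 CPM in aGVHD replicate 1 through 1697 (aGVHD replicate 3), 1978 (control replicate 3), 2081 (aGVHD replicate 11) and 2582 (control replicate 2) to 3234 in aGVHD replicate 8. Txnip in the other base cells of these libraries ran from 365 to 1206 CPM. Member Cxcr4 was 2505 CPM in control replicate 3, 2946, 3055, 3015 and 3089 in aGVHD replicates 1, 3, 8 and 11, and 4610 in control replicate 2. The 4 aGVHD values lay between the 2 control values. Outside these 6 libraries, the 3 members of aGVHD replicate 7 had 301 CPM of Cxcr4, against 524 in its other base cells. Member Mmp9 was 1844 and 4878 CPM in control replicates 2 and 3, and 2619, 3394, 2845 and 3186 in aGVHD replicates 1, 3, 8 and 11. Gngt2 was at 0 in the 5 members of control replicate 2 and reached 679 CPM in aGVHD replicate 3.

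**Figure D1:**
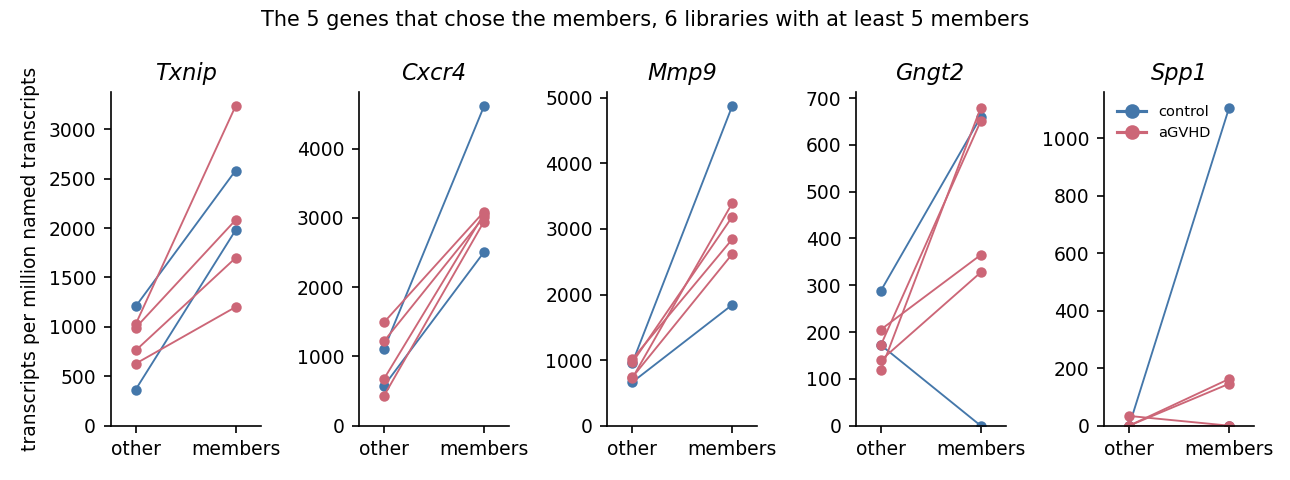
Level of each of the 5 chosen genes (y axis, CPM of named transcripts) in the other base cells and the members of the same library, joined by a line, for 2 control and 4 aGVHD libraries. Txnip, Cxcr4 and Mmp9 were higher in members in each of the 6 libraries, while Gngt2 in control replicate 2 was 0 in members. The sum of the 5 genes chose the cells, so no test is given.

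Members were found in 17 of the 22 libraries. Counting the 7 control libraries with at least 5 base cells, control replicates 1, 4 and 6 held none of 11, 15 and 10 base cells, which allows shares of up to 28.5%, 21.8% and 30.8% (upper limits of exact 95% binomial intervals). Control replicates 2 and 3 held 5 of 26 and 6 of 23, and control replicates 7 and 8 held 2 of 17 and 2 of 14. In aGVHD, replicates 1 to 4 held 8 of 49, 4 of 39, 6 of 38 and 2 of 58. Replicates 5 to 7 held 2 of 27, 4 of 47 and 3 of 56. Replicate 8 held 25 of 66, replicate 9 held 1 of 27, replicate 10 held 4 of 25, replicate 11 held 17 of 54 and replicate 12 held 4 of 27. aGVHD replicates 8 and 11 together supplied 42 of the 96 members, and their shares of 37.9% and 31.5% were above that of each of the other 17 libraries with at least 5 base cells. Binomial intervals here cover counting error only.

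The share of members did not differ between the groups beyond the spread between libraries. Control libraries averaged 10.2% ± 10.5 (SD, n = 7) and aGVHD libraries 14.2% ± 10.7 (SD, n = 12), a difference of 4.05 percentage points (exact permutation test within title sets, two-sided p = 0.448). Dated libraries alone gave 6.58 points (exact permutation p = 0.374), and G1 libraries alone gave -1.57 points (exact permutation p = 0.8), where 15 arrangements allow no p under 0.05. Leaving out aGVHD replicate 8 gave 1.90 points and leaving out aGVHD replicate 11 gave 2.49. Without control replicate 1, 4 or 6 the value was 2.35, and without control replicate 3 it was 6.70. The direction turned when Txnip was left out of the score (-1.05 points), when cells were thinned (-0.71), when the 15% was taken within libraries (-0.94), and when base cells with over 5 transcripts of other cell types' markers were left out (-1.59).

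**Figure D2:**
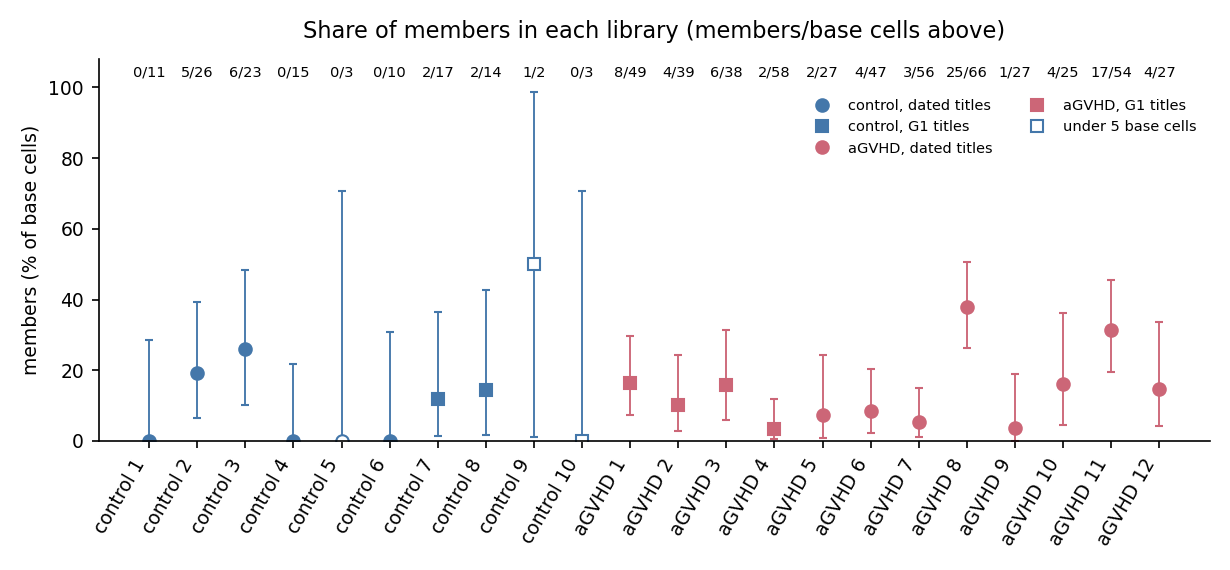
Members as a percent of base cells in each library (y axis), with exact 95% binomial intervals and the counts printed above. Circles are dated titles, squares G1 titles, and open symbols are libraries with under 5 base cells. aGVHD replicates 8 and 11 stood at 37.9% and 31.5%, and the intervals of most other libraries overlapped.

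Taking each gene out of the score in turn asked whether cells chosen by the other 4 genes also carried the gene left out. The gene left out entered that choice only through the total of named transcripts that divides the score. The 5 genes had been put forward together with these data in view, so the p-values of these fits are no independent support for the grouping. In cells chosen without Txnip, Txnip was 1662 ± 745 CPM against 905 ± 320 CPM in the other base cells (SD, n = 9 libraries), and it was higher in 8 of 9. The log2 fold change was 0.77 ± 0.21 (SE; adjusted p = 0.0192 by limma), in a comparison in which 4.67% of 471 genes were called higher. aGVHD replicate 7 was the exception, with 641 CPM in chosen cells and 1003 in the others. The call was lost without control replicate 3 (adjusted p = 0.0505), without aGVHD replicate 8 (0.0683), without aGVHD replicate 11 (0.0674), and without cells over 4 times their library's median total (log2 fold change 0.64, limma adjusted p = 0.0910).

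Mmp9 behaved much the same. In cells chosen without it, Mmp9 was 1871 ± 477 CPM against 1028 ± 319 CPM (SD, n = 7 libraries) and was higher in 7 of 7. Chosen cells had 1350 CPM in control replicate 2 and 1435, 2755, 2035, 2079, 1788 and 1658 in aGVHD replicates 1, 2, 3, 8, 11 and 12, while the others had 662 to 1567. The log2 fold change was 0.69 ± 0.19 (SE; adjusted p = 0.0435 by limma, with 1.37% of 582 genes called higher). Leaving out any 1 of the 7 libraries ended the call, with adjusted p between 0.0637 and 0.124, and so did leaving out the deep cells (log2 fold change 0.61, limma adjusted p = 0.181).

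Cxcr4 was not called. In cells chosen without it, Cxcr4 was 1548 ± 896 CPM against 991 ± 571 CPM (SD, n = 6 libraries), higher in 5 of 6. The difference on the log2 scale was 0.48 ± 0.27 (SE; adjusted p = 0.411 by limma, with 0.362% of 553 genes called higher). Gngt2, kept in the fit below the filter on low counts, had a log2 fold change of 0.41 ± 0.39 (SE; adjusted p = 0.588 by limma). Cells chosen without Gngt2 held it in 40 of 96 cells, against 120 of 541 others. Cells chosen without Spp1 held it in 8 of 96 cells, against 15 of 541. In the 7 libraries that could be fitted, Spp1 gave 17 transcripts in chosen cells and 2 in the others. Chosen cells held it in 3 of the 7, at 888.9 CPM in control replicate 2, 139.5 in aGVHD replicate 8 and 164.04 in aGVHD replicate 11. A single cell held 6 transcripts in control replicate 2. The fitted fold and p of so few counts depend on the offset added to them and are not given.

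**Figure D3:**
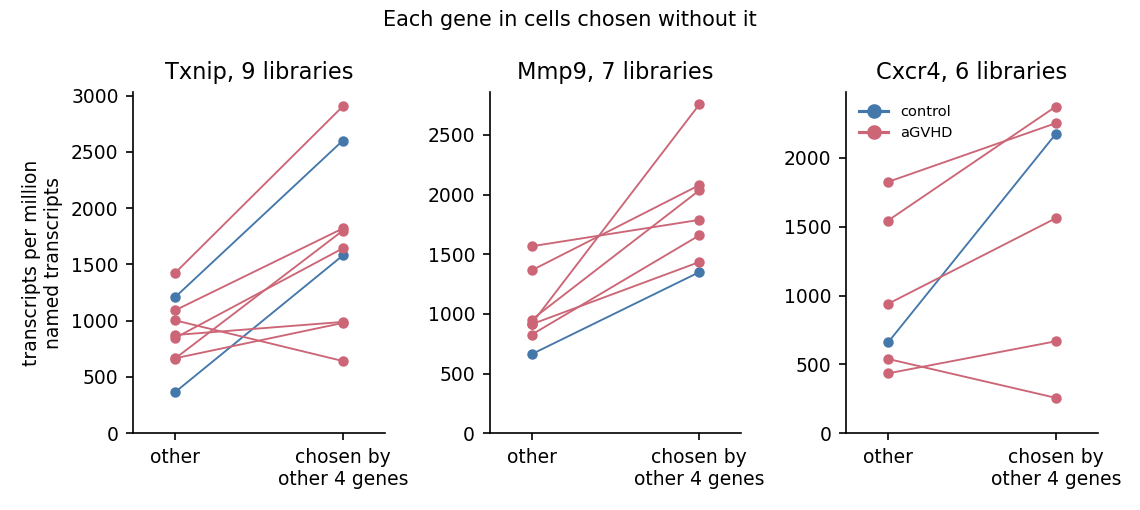
Level of Txnip, Mmp9 and Cxcr4 (y axis, CPM of named transcripts) in cells chosen by the other 4 genes and in the other base cells of the same library, joined by a line. Txnip was higher in chosen cells in 8 of 9 libraries, Mmp9 in 7 of 7 and Cxcr4 in 5 of 6. The genes had been put forward together with these data in view.

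The rest of the transcriptome was compared between members and other base cells within the same library, with the 5 genes left out. The 6 libraries with at least 5 cells of each kind held 67 members. Of the genes, 617 passed the filter on low counts. Members had higher Csf1 and lower Lyz1, Retnlg and H2-Aa, and these 4 calls were also made without deep base cells. In all, 45 of 617 genes (7.29%) were called at a limma adjusted p under 0.05, 5 higher (0.81%) and 40 lower (6.48%) in members. Without scaling beyond the library total, 39 were higher and 33 lower, and with limma's trend method in place of precision weights 28 were higher and 38 lower. Leaving out aGVHD replicate 11 left 21 calls, and leaving out aGVHD replicate 1 left 28. The median log2 fold change over all genes was 0.09, and 0.23 without scaling.

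Most calls were not made without deep cells. Of the base cells, 27 had over 4 times the median total of their library's base cells, and none of the 27 was a member. Their named transcripts were 22.2% mitochondrial and 7.08% ribosomal protein, against 8.33% and 3.05% in the remaining non-members and 5.75% and 2.29% in members. In the 6 libraries, 12 such cells supplied 23.3% of the other base cells' named transcripts. When deep cells were left out and 15% of the 610 remaining base cells were chosen again, 4 of 531 genes (0.753%) were called. With the 96 members kept and deep cells left out of the others only, the same 4 of 524 genes were called. Since the score was divided by the named total, every named gene also entered it through the denominator. Without base cells over 5 transcripts of other cell types' markers, a limit set after seeing the data that leaves 2 libraries, limma called none of 585 genes.

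Csf1 was called higher in members with and without deep cells, though not in each way of choosing them. It encodes the macrophage colony-stimulating factor, the ligand of CSF1R. Csf1 was 3912 CPM in members and 667 in others of control replicate 2, and 2930 against 904 in control replicate 3. In aGVHD it was 2638 against 656 (replicate 1), 3995 against 695 (replicate 3), 1571 against 986 (replicate 8) and 1542 against 1087 (replicate 11). Members were above the others in each of the 6 libraries, and the lowest member value was above the highest value of the others. The smallest differences were in the 2 libraries with the most members. The mean was 2765 ± 1076 CPM against 833 ± 184.9 CPM (SD, n = 6). Its log2 fold change was 1.42 ± 0.26 (SE; adjusted p = 0.00441 by limma). It was called when any 1 library was left out, at 1.11 to 1.65, and without deep cells at 1.20 (limma adjusted p = 0.0206). It was not called with at least 10 S100a8 and S100a9 transcripts per cell (0.091, adjusted p = 0.942), at least 10 cells of each kind (0.49, 0.376), no filter (0.75, 0.102), members scored on thinned cells (0.60, 0.149) or without Cxcr4 (0.64, 0.198), aGVHD libraries alone (1.12, 0.0650), the dated set (0.97, 0.0749), or without base cells over 5 transcripts of other cell types' markers (0.60, 0.774).

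The other 4 higher genes lost their call without deep cells. Itgax, which encodes CD11c and rises on ageing neutrophils, was 482 ± 240 CPM against 140.9 ± 99.3 CPM (SD, n = 6), with a log2 fold change of 1.56 ± 0.37 (SE; adjusted p = 0.0169 by limma). Its 2 values in aGVHD replicate 1 were 109.9 and 111.7 CPM, so members stood above the others in 5 of 6 libraries. Mbnl2, a splicing regulator of the muscleblind family, had a log2 fold change of 1.30, Gsn, the actin-severing protein gelsolin, 1.04, and Il1rn, the interleukin-1 receptor antagonist, 0.75, each higher in 6 of 6 libraries. Il1rn was 3381 ± 1026 CPM in members and 1769 ± 558 in others (SD, n = 6). Without deep cells Itgax was at 1.31, Mbnl2 1.06, Gsn 0.81 and Il1rn 0.61, with limma adjusted p of 0.124, 0.124, 0.161 and 0.161. Leaving out aGVHD replicate 11 ended the call for Itgax (adjusted p = 0.101), Gsn (0.0662) and Il1rn (0.0856). Leaving out aGVHD replicate 1 ended it for Mbnl2 (0.0552) and Il1rn (0.0696), aGVHD replicate 3 for Gsn (0.0633) and Il1rn (0.171), and control replicate 3 for Il1rn (0.0951). Without aGVHD replicate 8 Itgax did not pass the filter.

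Lyz1 was the gene with the largest decrease. Lyz1 is the lysozyme of Paneth cells, and its near-identical copy Lyz2 is the lysozyme of myeloid cells, so how reads were split between them is uncertain. Lyz1 was 373 and 266 CPM in members of control replicates 2 and 3, and 879, 799, 344 and 361 in aGVHD replicates 1, 3, 8 and 11. The other base cells had 1111, 1212, 3003, 3999, 1127 and 3023 CPM in the same order, above members in 6 of 6 libraries with no overlap between the 2 sets of values. The log2 fold change was -2.26 ± 0.27 (SE; adjusted p = 6.78e-05 by limma). It was called in each fit that left out 1 library (-2.44 to -2.02) and without deep cells (-2.33, limma adjusted p = 9.02e-06). It was not called with at least 10 cells of each kind (-2.51, adjusted p = 0.320), or without base cells over 5 transcripts of other cell types' markers, a limit that counts Lyz1 itself (-0.016, 0.994). The other epithelial markers were also lower in members over all base cells. Without Lyz1, the 13 remaining markers summed to a median of 0.0089% of named transcripts in members (0 to 0.0369% over the 6 libraries) and 0.119% in others (0.0145% to 0.417%). In others that were not deep the median was 0.0203% (0.00847% to 0.0749%), a range that overlapped that of members. Reg3g, Krt8, Fabp2 and Apoa1 were at 0 in members. The part of epithelial RNA in the Lyz1 difference was not tested, nor was that of myeloid lysozyme reads.

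Retnlg and H2-Aa were also called with and without deep cells. Retnlg, a resistin-like protein of neutrophils and marrow, was 1863 and 266 CPM in members of control replicates 2 and 3 and 769, 457, 786 and 820 in aGVHD replicates 1, 3, 8 and 11. The others had 741, 1924, 1997, 4033, 1506 and 1392 CPM, so control replicate 2 went the opposite way. The log2 fold change was -1.31 ± 0.35 (SE; adjusted p = 0.0288 by limma), and the call ended without control replicate 3 (adjusted p = 0.0556), without aGVHD replicate 1 (0.0556) or without aGVHD replicate 3 (0.0663). Retnlg was also not called in aGVHD libraries alone (-1.47, adjusted p = 0.0551), the dated set (-0.95, 0.152), the top 10% of base cells (-0.99, 0.1503), with at least 10 S100a8 and S100a9 transcripts (-0.65, 0.328), with at least 10 cells of each kind (-0.95, 0.371), or without base cells over the marker limit (-1.33, 0.326). H2-Aa, the alpha chain of an MHC class II molecule, was 770 ± 659 CPM in members and 1532 ± 877 in others (SD, n = 6). Its log2 fold change was -1.53 ± 0.35 (SE; adjusted p = 0.0151 by limma), lost without aGVHD replicate 11 (-0.93, adjusted p = 0.127). The H2-Aa call was also lost in 8 other settings, where the value ran from -2.68 (at least 10 cells of each kind) to -0.47 (without base cells over the marker limit). In control replicate 2 the 2 values were 2049 and 2050 CPM.

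**Figure D4:**
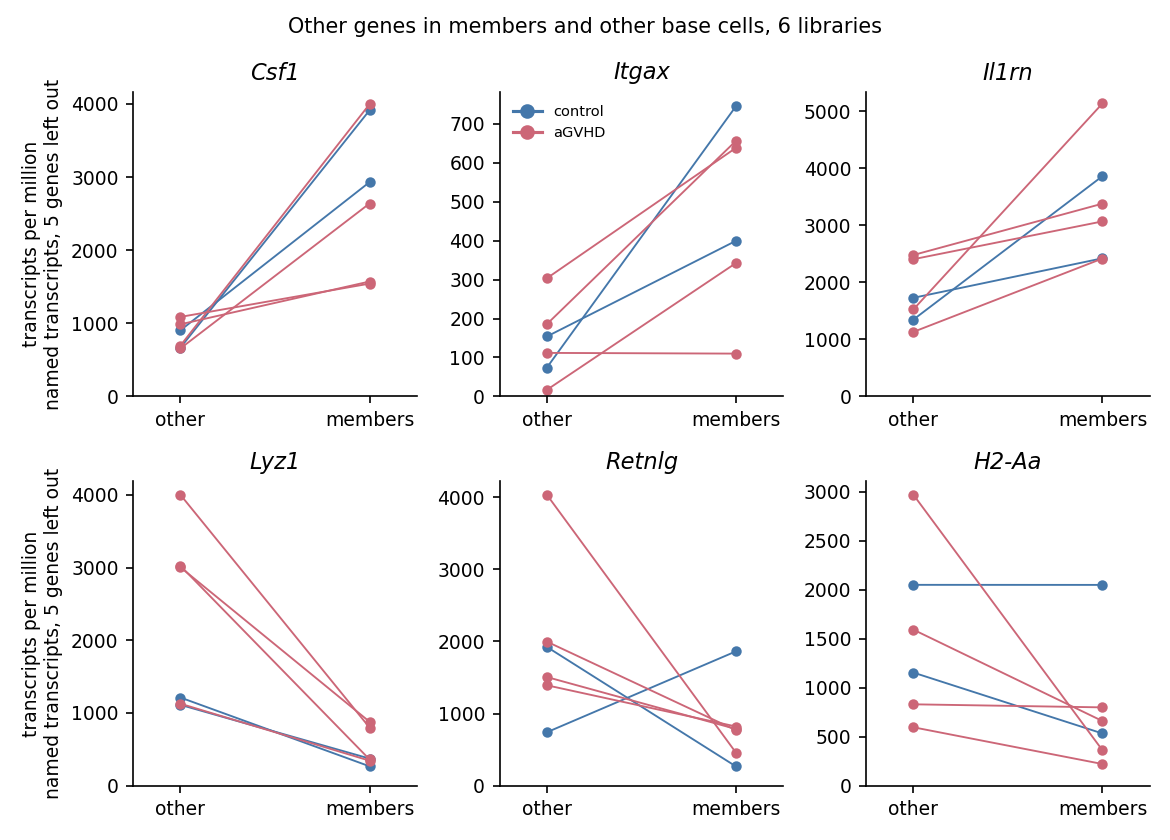
Level of 6 genes (y axis, CPM without the 5 chosen genes) in other base cells and members of the same library, joined by a line, for 2 control and 4 aGVHD libraries. Csf1 and Il1rn were higher in members and Lyz1 lower in each of the 6 libraries, Itgax was higher in 5, and Retnlg in control replicate 2 ran against the other libraries.

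Of the MHC class I and II list, 9 of 12 genes were tested, 3 were lower and 6 were not called, with a median log2 fold change of -0.30. Besides H2-Aa, the beta chain H2-Ab1 was at -1.22 and the invariant chain Cd74 at -1.21 (limma adjusted p = 0.0288 and 0.0178). Both calls were lost without aGVHD replicate 11 (adjusted p = 0.290 and 0.113) and without deep cells (0.124 each). H2-Q6, a class I gene, was at 0.75 (limma adjusted p = 0.0583). Of 10 dendritic cell markers, 6 were detected in members, at 0.0155% of named transcripts against 0.0344% in others, with Flt3, Itgae, Cd209a and Siglech at 0. The part of such cells in the class II difference was not tested.

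Translation and mitochondrial genes made up most of the lower calls. Of 56 ribosomal protein genes tested, 20 were lower and none higher, with a median log2 fold change of -0.94. Rpl13 was at -1.94 and Rpsa at -1.49. Of 14 mitochondrial transcripts, 12 were lower and none higher, with a median of -1.23, and the ribosomal RNA mt-Rnr2 went from 60548 ± 26140 CPM in others to 26847 ± 6028 in members (SD, n = 6; log2 fold change -1.26, limma adjusted p = 0.000245). Without deep cells, none of 40 ribosomal protein genes and none of 13 mitochondrial transcripts was called by limma, and the medians were -0.64 and -0.50, with mt-Rnr2 at -0.57 (limma adjusted p = 0.124). Eef1a1, a translation elongation factor, was at -1.17, Psap, prosaposin, at -1.01 and RP23-341H2.4 at -0.82, and each of the 3 lost its call without deep cells. Leaving out aGVHD replicate 11 also ended the calls of these 3 genes (adjusted p = 0.102, 0.196 and 0.0805). Eef1a1 further lost its call without control replicate 3 (0.0588) or aGVHD replicate 8 (0.0539), and RP23-341H2.4 without aGVHD replicate 1 (0.0930) or 3 (0.0633). Psap lost it without control replicate 2 (0.0563), control replicate 3 (0.0588) or aGVHD replicate 1 (0.0716).

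**Figure D5:**
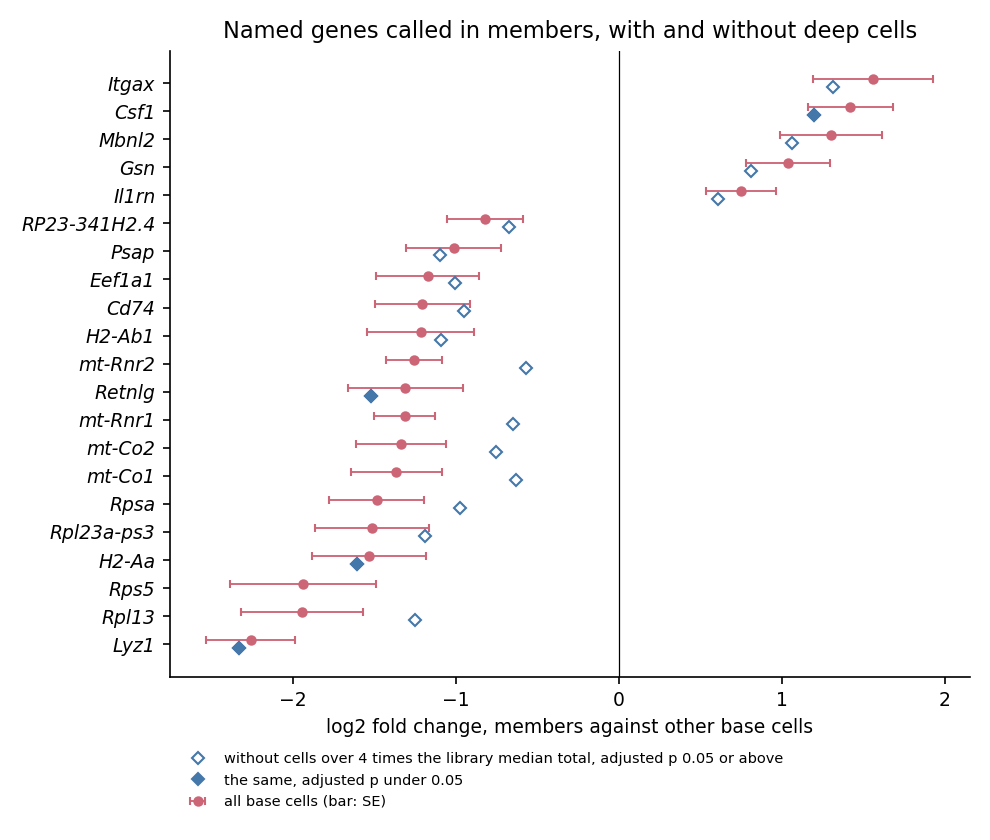
Log2 fold change of the named genes called in members against other base cells (x axis), over all base cells with its SE (circles) and without cells over 4 times the library median total (diamonds, filled where the limma adjusted p was under 0.05). Csf1, Lyz1, Retnlg and H2-Aa kept their calls, and the mitochondrial transcripts moved towards 0.

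The lists below give how other genes tied to these functions stood, and they were chosen with earlier results of these data known. Counts at an unadjusted p under 0.05 are given as values, with no test against the share over all 617 genes. Many genes outside these lists also reached that p, so the counts alone set no list apart. Of the neutrophil ageing list, 7 of 12 genes were tested, Itgax was higher and the other 6 were not called, with a median log2 fold change of 0.02. Cd24a was at 0.77 (limma adjusted p = 0.0627) and Icam1 at 0.34 (0.560). Of the chemoattractant receptor and G protein list, which relates to Cxcr4 and Gngt2, 12 of 29 genes were tested and none was called by limma (3 at an unadjusted p under 0.05). Their median was 0.39 with 11 of 12 above 0, against 355 of 617 genes in all. Without deep cells 11 were tested and the median was 0.28. Rac2 was at 0.63, Ptafr, the receptor for platelet-activating factor, at 0.54 and Gnai2 at 0.46 (limma adjusted p = 0.161, 0.161 and 0.198).

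For Txnip, the list of arrestin relatives, MondoA partners and genes responsive to FOXO or glucocorticoid had 9 of 25 genes tested. None was called by limma (2 at an unadjusted p under 0.05), and the median was 0.45. Without deep cells 7 were tested and the median was 0.11, against 0.006 over all genes. Arrdc4, the arrestin relative induced with Txnip by MondoA, was at 0.73 ± 0.36 (SE; adjusted p = 0.219 by limma). Il1r2, the decoy receptor for interleukin-1, was 4338 ± 1189 CPM in members and 2596 ± 573 in others (SD, n = 6), higher in 6 of 6 libraries at 0.57 (limma adjusted p = 0.0583). Ypel3 was at 0.85 (0.0696). Without deep cells Il1r2 was at 0.35 and Ypel3 at 0.67 (limma adjusted p = 0.331 and 0.289). In the glycolysis and hypoxia list, 8 of 28 genes were tested and none was called (1 at an unadjusted p under 0.05), with a median of 0.09, the same as over all genes. Pgam1 was at 0.78 and Aldoa at 0.33 (limma adjusted p = 0.127 and 0.520).

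For Mmp9 and Spp1, 6 of 20 matrix proteases and matrix receptors were tested. None was called, and none was at an unadjusted p under 0.05. The median was 0.07, and -0.18 without deep cells. Cd44, the hyaluronan receptor that also binds osteopontin, was at 0.18 (limma adjusted p = 0.711). Of the granule list, 4 of 12 genes were tested and none was called (1 unadjusted), among them Hp, haptoglobin, at 0.53 and Lcn2. In the late maturation list, 12 of 20 were tested and Retnlg was called lower (5 unadjusted). The median was 0.26, and 0.01 without deep cells. Csf3r was at 0.67 and Hdc, histidine decarboxylase, at 0.48, each higher in 6 of 6 libraries and not called (limma adjusted p = 0.0595 and 0.167). Of the NADPH oxidase genes, 5 of 6 were tested and none was called (2 unadjusted), with Ncf1 at 0.66 (limma adjusted p = 0.0744).

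Lcn2, lipocalin-2, was not called over the 6 libraries. Lcn2 was 1539 CPM in members of aGVHD replicate 1 and under 230 CPM in members of the other 5 libraries, with a mean of 369 ± 579 CPM (SD, n = 6), against 596 ± 382 CPM in the others. Its log2 fold change was -0.99 ± 0.42 (SE; adjusted p = 0.153 by limma). In the 6 fits that left out 1 library it ran from -1.65 to -0.74, and it was called lower in 1 of them. Of the alarmin and secreted inhibitor list, 7 of 12 were tested and none was called (1 unadjusted), with a median of -0.28. S100a8, which the choice of base cells used, was at -0.28, S100a6 at -0.33 and Slpi, the secretory leukocyte protease inhibitor, at -0.49 (limma adjusted p = 0.396, 0.482 and 0.353).

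Few inflammatory genes passed the test. Of the NF-kB list, 19 of 24 genes were tested, Il1rn was higher and 18 were not called, with a median of 0.19. Il1b was 12705 ± 5064 CPM in members and 9270 ± 3241 in others (SD, n = 6; log2 fold change 0.25, limma adjusted p = 0.404). Ptgs2, cyclooxygenase-2, was at 0.50 and Tnf at -0.75 (limma adjusted p = 0.223 and 0.232). Of the interferon list, 14 of 32 were tested and none was called (2 unadjusted), with a median of -0.19. Slfn1 was at 0.82, Rsad2 at -1.03 and Cxcl10 at -0.80 (limma adjusted p = 0.0647, 0.106 and 0.241). In the AP-1 and immediate early list 14 of 16 were tested, in the survival and apoptosis list 6 of 14, and in the tissue-adapted and tumour-type list 12 of 24. None was called by limma in any of the 3, with 1, 0 and 2 genes at an unadjusted p under 0.05 and medians of -0.06, 0.12 and 0.31. Of the immunoregulatory list, 4 of 16 were tested and Il1rn was called. Pim1, a survival kinase, was at 0.32, Ctsd, cathepsin D, at 0.76 and Cd274, PD-L1, at -0.22 (limma adjusted p = 0.249, 0.121 and 0.657).

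Members of aGVHD and control libraries were compared over 2 control and 4 aGVHD libraries with the title set as a term. aGVHD replicates 1 and 3 were G1 libraries, and no G1 control library entered. With that term, the fold change between groups came from aGVHD replicates 8 and 11 against control replicates 2 and 3. Values of aGVHD replicates 1 and 3 are given beside it as a description. None of the genes that passed the filter was called by limma (0%), with 13 at an unadjusted p under 0.05 and a smallest adjusted p of 0.206. Gbp2, an interferon-induced GTPase, was 369 and 396 CPM in control replicates 2 and 3 and 546, 453, 2237 and 1366 in aGVHD replicates 1, 3, 8 and 11 (log2 fold change 1.91, SE 0.51, limma adjusted p = 0.206). G0s2, an inhibitor of lipolysis, was 6823 and 5669 CPM in control and 3383, 2263, 2820 and 1983 in aGVHD (log2 fold change -1.44, SE 0.39, limma adjusted p = 0.206). Neither gene's groups overlapped, but both genes were named after their values were seen. The groups were also apart for Actr3, Ptprc and Eef1a1, and they overlapped for Il1b, Fos and Csf1. How many of all genes tested had groups apart was not counted, so the separation of Gbp2 and G0s2 is given as a description. Csf1 was at -1.19 (limma adjusted p = 0.312).

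Il1b was 17334 and 14634 CPM in control members and 18442, 11202, 6905 and 7023 in aGVHD members (log2 fold change -1.25, limma adjusted p = 0.206). It was called without aGVHD replicate 1 (-1.23, adjusted p = 0.0315) and without aGVHD replicate 3 (-1.24, adjusted p = 0.0249). Without control replicate 2, which leaves 1 control library assumed to vary like the others, Cxcl2, Igkc, Il1a and Ptgs2 were called lower in aGVHD. A test of whether the difference between members and others itself differed between the groups called none of 617 genes, with 44 at an unadjusted p under 0.05 and a smallest limma adjusted p of 0.497. On simulated sums of this size, the group comparison found 0% of genes changed by a log2 of 1 and 37.5% of those changed by 2, so few differences were detectable at this depth. For the comparison within libraries the values were 29.4% and 93.5% (555 genes).

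Library totals ran from 45607 to 360054 transcripts. Members had a median of 2019 transcripts per cell and the other base cells 2530, of which 1352 and 1475 came from named genes. Unnamed Gm models took a median of 26.3% of transcripts in members and 36.7% in others over all libraries, with members higher in 3 of the 6 libraries compared (control replicate 2 and aGVHD replicates 8 and 11). Igkc, an immunoglobulin light chain, was seen in 27.1% of members and 12.9% of others, at 1597 and 5023 CPM, while Cd79a, Cd79b, Ms4a1 and Mzb1 were at 0 in members. The summed B and plasma cell markers were 0.252% of named transcripts in members and 0.840% in others, or 0.139% in others that were not deep. Over the 6 libraries they ran from 0.0267% to 0.634% in members and from 0.0205% to 14.6% in others. Macrophage and monocyte markers were 0.206% and 0.227%, with Ms4a7, Fcgr1, Ccr2 and Cd163 at 0 in members. Their part in the differences above was not tested. The plate barcodes are the same in each library. Members sat on 82 of them, and 12 of these carried members in more than 1 library.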

How the data were processed

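The deposited tables gave, per the labels' protocols, CEL-Seq2 transcript values per gene and barcode, 1 table per library. The submitters' processing notes name bcl2fastq 2.17.1.14 and BWA 0.6.2-r126. No source used here names the genome build, and no coordinates are printed. Each of 1419098 values above 0 equals the transcript number corrected for identifier collisions from a whole identifier count in a pool of 4096 (tolerance 1e-06), so the authors' values are estimated counts, not scaled for depth. They were rounded. The members and gene lists were chosen with earlier results of these data known.

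Transcripts of named genes were summed per library over members and over other base cells, for libraries with at least 5 of each, without the 5 chosen genes. The planned count model was not used, since the unit of the tables could not be read as counts by the column check. The named fallback was limma 3.58.1 (R 4.3.3) with voom weights, trimmed-mean scaling and the library as a block. The low-count filter asked for 10 transcripts at the median sum size in as many sums as libraries and 15 in total, and p-values were Benjamini-Hochberg adjusted over all genes tested. A planned second count model was replaced by limma's trend method. Members of the 2 groups were compared with the title set as a term. Shares were compared by exact permutation within title sets (scipy 1.17.1). The tests were tried on simulated sums (dispersion 0.2). No doublet caller was run, and leaving out cells over 4 times the median total served instead.

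Genes named were the 5 chosen genes, up to 12 called genes in each direction with the same sign in at least 80% of libraries (unnamed, ribosomal, mitochondrial and Rik genes left out), up to 4 genes of each list with the smallest p, and Lcn2. Genes of the comparison between groups, levels of other cell types' markers and genes below the filter were named after their values were seen. Some genes that these rules name are not reported here.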

Additional observations from a re-analysis of the deposited data

Results flagged for a closer look

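Of 45 sets of 4 to 10 libraries, 5 held 1 library far from the rest, a gap that chance gives in about 1 of 20 such sets. Among the 4 aGVHD libraries, members of replicate 1 stood high for Lcn2 (1539 CPM, next 230 CPM) and for RP23-341H2.4 (3297 CPM, next 1027 CPM). Members of the same replicate stood low for Psap (219.8 CPM, next 427 CPM). Retnlg in members was lowest in replicate 3 (457 CPM, next 769 CPM). Rpl13 in other base cells was highest in replicate 11 (902 CPM, next 545 CPM). The called genes Retnlg, Psap and RP23-341H2.4 each lost their call when the library that stood apart was left out. Lcn2, not called over the 6 libraries, was called lower in 1 of the 6 fits that left out 1 library.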

How the results depend on the processing

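With the members chosen in other ways or other fits, the 45 genes called between members and others became 72 without scaling, 366 of 8454 with no filter, 29 with no replicate block (library not in the model), 0 with at least 10 cells of each kind (140 unadjusted by limma), 7 in aGVHD libraries alone, 9 in the dated set, 20 in the G1 set, 5 with the top 10% of base cells, 11 with at least 10 S100a8 and S100a9 transcripts, 13 with Cxcr4 left out of the score, and 4 without deep cells. Alternatives chosen after seeing the data gave 2 of 37 genes on cells thinned to 200 named transcripts, 0 of 35 when deep cells were also left out, 4 of 524 with the members kept and deep cells left out of the others, and 0 of 585 without base cells over 5 transcripts of other cell types' markers. Leaving out 1 library gave 21 (aGVHD replicate 11) to 49, with 28 without aGVHD replicate 1. The cause of these changes was not tested. Some of these fits also held fewer libraries or genes.

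Without the filter the left-out genes came to 0.025 for Txnip, 0.12 for Mmp9, -0.060 for Cxcr4 and -0.25 for Gngt2. Medians over all genes of the first 3 fits were then 0.64, 0.44 and 0.29, since an offset is added to many genes at 0 in the smaller sums. Leaving out 1 library gave 0.67 to 0.89 for Txnip and 0.51 to 0.79 for Mmp9. Without deep cells these genes were at 0.64 and 0.61.

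The difference in member share turned to -0.94, -0.71, -1.05, -1.57 and -1.59 points, for the top 15% within libraries, thinned cells, the score without Txnip, the G1 set and base cells without foreign markers. It was 1.90 to 6.70 with 1 library left out, and 5.97 with the replicate block over 5 pairs of dated libraries by title number (exact permutation p = 0.625). Same-numbered libraries correlated between -0.25 and 0.18 in their deviations, with the highest value for control replicate 3 and aGVHD replicate 7. The labels do not say what else same-numbered libraries share. The replicate block called 0 of 66 genes between groups. Leaving out 1 library gave 0 to 4 such calls, 1 without aGVHD replicate 1 and 1 without aGVHD replicate 3.

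Il1rn turned to -0.18 with at least 10 S100a8 and S100a9 transcripts. Of 597 alternative values of the 21 called named genes, 352 kept call and direction and 244 lost the call.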

Other observations

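Some genes of the lists fell below the filter and were not tested, and their pooled levels are given as values. Siglecf, a lectin of eosinophils and of some tissue neutrophils, was found in 20 of 96 members and 57 of 541 others, at 212.0 and 75.7 CPM, and the 7 eosinophil markers, Siglecf among them, summed to 0.0254% of named transcripts in members and 0.0152% in others. Of the others in that list, Ccr3 had 4 transcripts in members and Ear1 had 2, while Prg2, Il5ra, Ear6 and Alox15 were at 0, Prg2 also in the other base cells. Arrb2, a beta-arrestin, stood at 367 and 197 CPM. The gene Mmp8, neutrophil collagenase, stood at 148.4 CPM in members and 592 CPM in others, and Ceacam1 at 84.8 and 393 CPM. Arrdc3, an arrestin relative, stood at 162.5 and 81.4 CPM.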
